A study of Mus musculus with 4 samples.

Results

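The genes described here are 9 mouse genes of nucleotide excision repair and its neighbours. They comprise 5 grouped as linked to the tumour suppressor p53 (Xpc, Ddb2, Polk, Rrm2b and Ercc5), a link not tested in these mouse cells. The other 4 (Xpa, Ddb1, Ercc1 and Ercc4) were taken for comparison. The 9 were chosen by name, with earlier results of these data known, and all were present among the 20065 genes of the deposited table. RNA was sequenced in 4 libraries from satellite cells, the muscle stem cells (MuSC) that lie along the fibres, taken from limb and trunk muscles of adult C57BL/6 mice and grown in culture. The 2 Ctrl libraries came from Pax7CreERT2/Prmt5+/loxP cells and the 2 Prmt5sKO libraries from Pax7CreERT2/Prmt5loxP/loxP cells. Both groups carried the tamoxifen-inducible Cre recombinase under the Pax7 gene and both received tamoxifen, which the study describes as 4-hydroxytamoxifen given to the MuSC. Ctrl cells, labelled wild type, therefore carried 1 floxed Prmt5 allele themselves, and deletion was limited to cells that expressed Pax7. How many animals stood behind a culture is not given in the sources used here, so the p-values measure only the spread between these libraries, which may be technical.

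Nucleotide excision repair removes bulky, helix-distorting DNA lesions. XPC and the UV-damage binding proteins DDB1 and DDB2 find the lesion, XPA and TFIIH verify and open it, and the nucleases XPG (Ercc5) and ERCC1-XPF (Ercc1 and Ercc4) cut on both sides before the gap is filled. Polk encodes a DNA polymerase that copies past damaged bases, and Rrm2b encodes a small subunit of ribonucleotide reductase that supplies deoxynucleotides outside S phase. p53 induces a subset of these genes after DNA damage, whereas others are transcribed at a steady level.

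Only group means were deposited, and the reads counted in single libraries were worked back from them for 100% of the genes. Since no replicate number comes with the recovered values, the pair of libraries in each group is told apart by total count as deeper and shallower, and the totals lay between 13240754 and 20047430 reads. Below, values of a group are given with the deeper library first, as counts brought to a common depth by TMM scaling (normalized counts). Prmt5 itself had 2273 and 2906 normalized counts in Ctrl and 244 and 202 in Prmt5sKO. The satellite cell markers Pax7 (2569.6 to 3664) and Myod1 (12152.5 to 15548) were present in all 4 libraries. The 8 listed satellite cell markers together were less even, at 52982 and 45022 in Ctrl and 46250 and 76597 in Prmt5sKO. The shallower Prmt5sKO library stood apart: it held the highest count of all 12 muscle differentiation markers, which summed to 427593 normalized counts, against 56456 in the deeper Prmt5sKO library and 58197 and 103087 in the Ctrl libraries. Endothelial markers summed to between 56.3 and 171 normalized counts per library, and haematopoietic markers to between 65.9 and 126. Emcn, Ptprc, Adgre1 and Cd3e were not listed, and Cdh5 was at 0 in the shallower Prmt5sKO library. The mesenchymal markers summed to between 6231 and 16841, most of it Col3a1. The part of these markers in the results below was not tested.

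Across the 9 genes, transcripts of Ercc5 and Polk were the most abundant in Prmt5sKO relative to Ctrl, at 3.04-fold and 1.97-fold. Rrm2b, Xpc and Ercc4 lay 1.22- to 1.41-fold higher with both Prmt5sKO libraries above both Ctrl libraries, Ddb2, Xpa and Ercc1 overlapped between the groups, and Ddb1 was at 0.97-fold. None of the 9 passed the test across all genes (a Benjamini-Hochberg adjusted p no larger than 0.05 in limma-voom together with a 2-fold difference or more), a rule that called 0 of 16212 genes (0.00%) here and 0 genes in limma-trend. The smallest adjusted p of all genes tested was that of Prmt5 itself, at 0.193 in limma-voom with a log2 fold change of -3.52. With these libraries the rule in limma-voom thus missed even the deleted gene, so that failing it says little about the 9. The paper, which used DESeq2, did report up- and downregulated genes at a false discovery rate under 0.05. At an unadjusted p under 0.05, 2 of the 9 were higher in Prmt5sKO (limma-voom) and 0 were lower, beside 6.01% of all genes tested for higher and 6.95% for lower. Both Prmt5sKO libraries lay above both Ctrl libraries for 5 of the 9, beside 25.2% of all genes, and below them for 0, beside 23.6%. The log2 fold change was above 0 for 8 of the 9, beside 51.4% of all genes. Because the 9 were chosen with earlier results known, these shares are description only, and no test was run over the 9 as a set. The median log2 fold change was 0.50 for the 5 p53-linked genes, 0.27 for the 4 comparison genes and 0.02 for all genes tested. Without the deeper Prmt5sKO library these medians were 0.39 for the p53-linked and -0.079 for the comparison genes, without the shallower Prmt5sKO library 1.14 and 0.49, and without the shallower Ctrl library 0.51 and -0.019. In bulk RNA, a change in transcript per cell cannot be told apart from a change in which cells made up the culture.

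**Figure D1:**
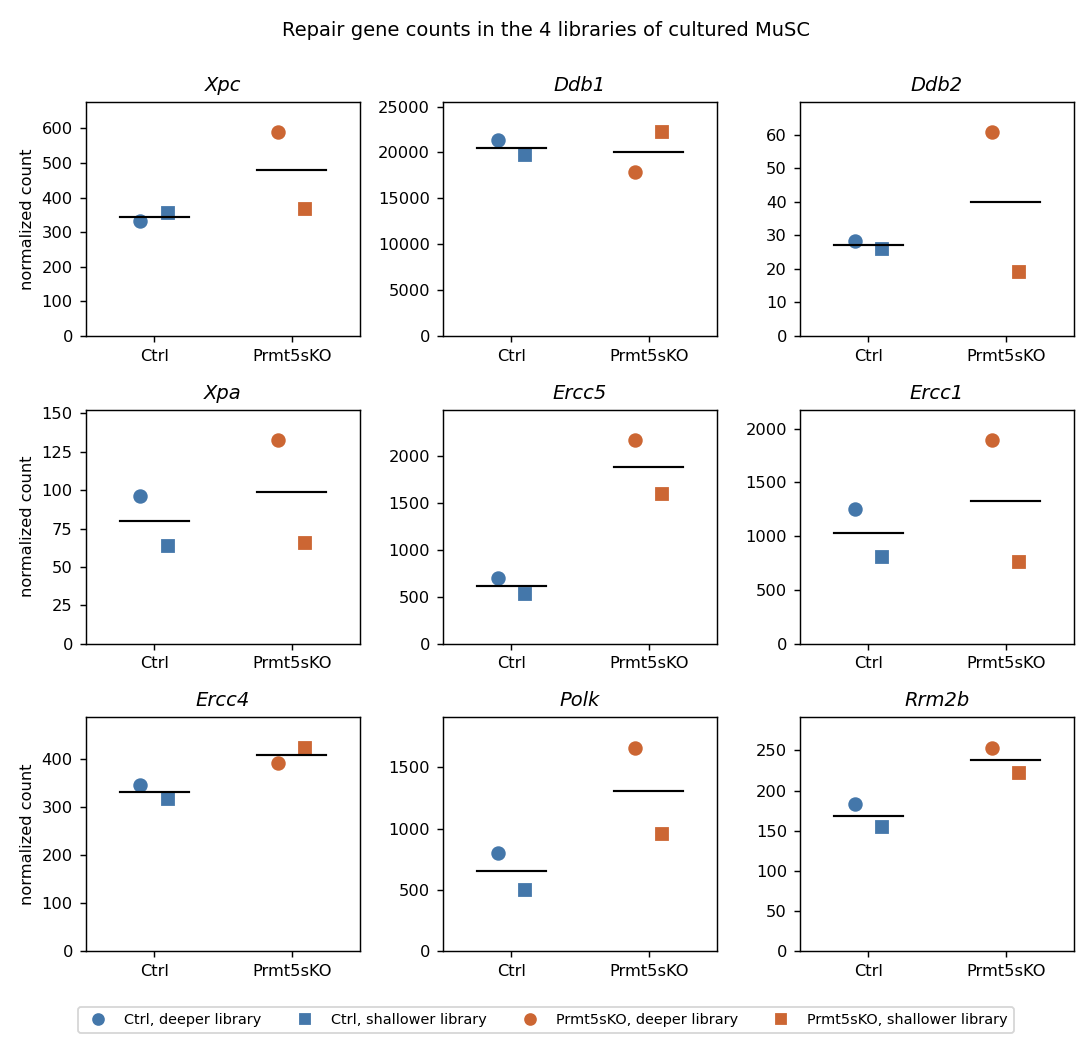
Normalized counts (vertical axis, from 0, on a scale of its own for each gene) of the 9 genes in the 2 Ctrl (blue) and 2 Prmt5sKO (orange) libraries. Circles are the deeper and squares the shallower library of a group, and black lines are group means. Both orange points lie above both blue points for Xpc, Ercc5, Ercc4, Polk and Rrm2b, whereas for Ddb2, Xpa and Ercc1 the 2 orange points lie on either side of a blue one.

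Lesion recognition was represented by Xpc, Ddb1 and Ddb2. Xpc (ENSMUSG00000030094, chromosome 6, 91489305 to 91515888, GRCm38) is the sensor of the global genome branch. In Ctrl it stood at 333 and 354 normalized counts, and in Prmt5sKO at 588 and 368. The groups did not overlap, but the shallower Prmt5sKO library was close to Ctrl while the deeper one was well above it. This gave a log2 fold change of 0.46 with a standard error of 0.32 (limma-voom, adjusted p = 0.554), and it was 0.10 without the deeper and 0.78 without the shallower Prmt5sKO library.

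Ddb2 (ENSMUSG00000002109, chromosome 2, 91211572 to 91236982, GRCm38), the subunit that contacts the damaged base, was the least abundant of the 9 genes. Its normalized counts were 28.3 and 25.9 in Ctrl, and 60.8 and 19.1 in Prmt5sKO. The deeper Prmt5sKO library was thus the highest and the shallower one the lowest of all 4. These values rested on 25 and 20 reads in Ctrl and on 82 and 19 reads in Prmt5sKO, with exact Poisson 95% intervals of 65.2 to 102 reads for the count of 82 and 11.4 to 29.7 for the count of 19, which cover counting error only. Scaled alike to normalized counts, the intervals were 48.3 to 75.4 and 11.5 to 29.8, so the Prmt5sKO libraries differed from each other by more than counting error. The log2 fold change was 0.40 (95% interval -1.49 to 2.29, adjusted p = 0.838 in limma-voom) and turned to -0.50 without the deeper Prmt5sKO library. Of the exon bases of Ddb2, 23.8% are shared with Acp2 on the opposite strand, and whether the authors' counting used strand is not given in the sources used here. Acp2 had 398 to 565 normalized counts per library, far above Ddb2. Its part in the Ddb2 counts was not tested.

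Ddb1 (ENSMUSG00000024740, chromosome 19, 10605327 to 10629819, GRCm38), the partner of DDB2 and the adaptor of CUL4 ubiquitin ligases, was the most abundant. Ctrl held 21338 and 19687 normalized counts of it, and Prmt5sKO 17890.2 and 22187. The groups overlapped, and the log2 fold change was -0.04, with a 95% interval from -0.59 to 0.51 (adjusted p = 0.955 in limma-voom). Its sign depended on the scaling: it was 0.07 when libraries were scaled by size only, which moved the median of all genes from 0.02 to 0.13.

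Xpa (ENSMUSG00000028329, chromosome 4, 46155347 to 46196311, GRCm38) encodes the scaffold that verifies the lesion. Its normalized counts were 96.1 and 63.5 in Ctrl, and 133 and 65.4 in Prmt5sKO. In both groups the deeper library was the higher one, and the shallower libraries were nearly level. This gave a log2 fold change of 0.29 with a standard error of 0.54 (limma-voom, adjusted p = 0.831), and it was -0.27 without the deeper Prmt5sKO library.

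Of the incision nucleases, Ercc5 (ENSMUSG00000026048, chromosome 1, 44147744 to 44181260, GRCm38), which encodes the XPG nuclease that cuts 3' of the lesion, differed most. Ctrl held 695 and 532 normalized counts of it, and Prmt5sKO 2168 and 1592. The lower Prmt5sKO library was still far above the higher Ctrl library. Group means were 613 ± 115 in Ctrl and 1880.0 ± 407 in Prmt5sKO (SD, n = 2 each), with a log2 fold change of 1.60 (standard error 0.27, 95% interval 0.95 to 2.26, adjusted p = 0.206 in limma-voom). A log2 fold change at least as large was seen for 6.42% of all genes tested. Leaving out any 1 library moved the value to between 1.38 and 1.83, and it passed the threshold without the deeper (1.38, adjusted p = 0.0416 in limma-voom) and without the shallower Prmt5sKO library (1.83, adjusted p = 0.0456 in limma-voom). Those fits called 3.07% and 0.342% of their genes, and each assumes that a lone Prmt5sKO library varies as the Ctrl libraries did. A fit that paired the deeper library of each group with the shallower of the other was chosen after seeing the data. It called 2.13% of all genes, with Ercc5 among them and the other 8 not. With the deeper libraries paired, 0 genes were called, and Ercc5 had an adjusted p of 0.244 in limma-voom. Over all 11 alternatives the adjusted p of Ercc5 ranged from 0.0313 to 0.968.

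The other nuclease is a heterodimer of ERCC1 and XPF, which cuts 5' of the lesion. Ercc1 (ENSMUSG00000003549, chromosome 7, 19344778 to 19356524, GRCm38) stood at 1251 and 809 normalized counts in Ctrl and at 1894 and 761 in Prmt5sKO. The deeper library was the higher one in both groups, and the shallower Prmt5sKO library lay below both Ctrl libraries. It differed by 0.26 on the log2 scale with a standard error of 0.47 (limma-voom, adjusted p = 0.828), and it was -0.41 without the deeper Prmt5sKO library and -0.05 without the shallower Ctrl library. Ercc4 (ENSMUSG00000022545, chromosome 16, 13109684 to 13150617, GRCm38), which encodes XPF, stood at 346 and 316 in Ctrl and at 392 and 423 in Prmt5sKO. Here the libraries of a group lay close together and the groups did not overlap, with a log2 fold change of 0.29 (standard error 0.25, 95% interval -0.32 to 0.90, adjusted p = 0.629 in limma-voom). Opposite-strand genes share 3.41% of the exon bases of Ercc1 (Cd3eap), 4.07% of Xpa (Ncbp1), 5.12% of Ddb1 (Tkfc) and 8.04% of Rrm2b (Gm49085), whereas no annotated gene overlaps Ercc4, Ercc5 or Xpc. Ncbp1, at 1729 to 2464 normalized counts per library, was far more abundant than Xpa. Cd3eap and Tkfc were less abundant than Ercc1 and Ddb1 in every library.

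Polk (ENSMUSG00000021668, chromosome 13, 96480690 to 96542579, GRCm38) encodes the translesion DNA polymerase kappa. Its normalized counts were 803 and 502 in Ctrl, and 1659 and 956 in Prmt5sKO. Both Prmt5sKO libraries were above both Ctrl libraries, and in each group the deeper library was higher, by 1.60-fold in Ctrl and 1.73-fold in Prmt5sKO. Means were 653 ± 213 and 1308 ± 497 (SD, n = 2 each). The difference was 0.98 on the log2 scale, with a standard error of 0.37 and a 95% interval of 0.08 to 1.88 (limma-voom, unadjusted p = 0.0369, adjusted p = 0.355), and with each library left out in turn it lay between 0.58 and 1.37.

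Rrm2b (ENSMUSG00000022292, chromosome 15, 37923952 to 37961318, GRCm38), the p53-linked small subunit of ribonucleotide reductase, stood at 183 and 154 normalized counts in Ctrl and at 253 and 222 in Prmt5sKO. The libraries of each group lay close together and the groups did not overlap. Means were 169 ± 20.3 and 238 ± 22.0 (SD, n = 2 each), a log2 fold change of 0.50 (standard error 0.31, 95% interval -0.26 to 1.26, adjusted p = 0.518 in limma-voom).

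**Figure D2:**
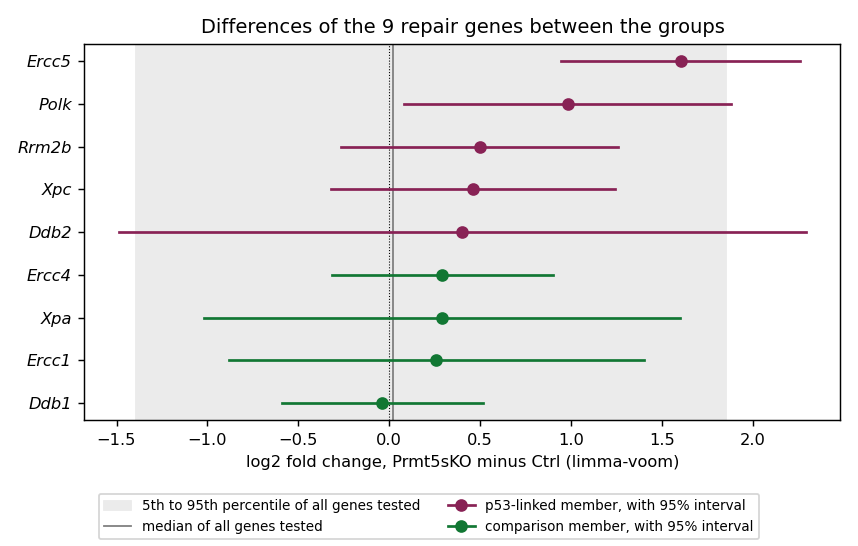
Log2 fold changes of the 9 genes, Prmt5sKO minus Ctrl, from limma-voom (points) with their 95% intervals (lines), the p53-linked genes in purple and the comparison genes in green. The grey band spans the 5th to 95th percentile of all 16212 genes tested, from -1.39 to 1.85, and the grey line marks their median of 0.02, and only the intervals of Ercc5 and Polk lie above 0.

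Ercc5 and Polk, which differed most, are shown with the RefSeq sequence around their annotated transcription starts (GRCm38.p6, 250 bases before to 50 after the start, in the direction of the gene), so that the letters upstream of these genes can be read beside their values. Windows were at hand for 6 of the 9 genes, in 7 windows, and not for Xpc, Ddb2 and Rrm2b. Capitals mark the CCAAT box, the GC box (spelled GGGCGG), the cell cycle homology region (spelled TTTGAA) or a single decamer of the p53 consensus, on either strand.
Ercc5, chr1:44147494-44147793, plus strand: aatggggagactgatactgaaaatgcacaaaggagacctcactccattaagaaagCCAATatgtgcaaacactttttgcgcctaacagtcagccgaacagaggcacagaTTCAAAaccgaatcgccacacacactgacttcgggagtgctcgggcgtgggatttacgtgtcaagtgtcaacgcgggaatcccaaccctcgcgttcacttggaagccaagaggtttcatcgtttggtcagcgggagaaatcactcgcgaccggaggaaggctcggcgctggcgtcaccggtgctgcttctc
Polk, outer start, chr13:96542530-96542829, minus strand: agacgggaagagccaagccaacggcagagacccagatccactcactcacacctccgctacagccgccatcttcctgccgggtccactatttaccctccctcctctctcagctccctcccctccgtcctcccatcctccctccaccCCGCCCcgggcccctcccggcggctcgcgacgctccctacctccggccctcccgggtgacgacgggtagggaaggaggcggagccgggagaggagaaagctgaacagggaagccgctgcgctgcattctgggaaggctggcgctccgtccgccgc
Polk, inner start, chr13:96519138-96519437, minus strand: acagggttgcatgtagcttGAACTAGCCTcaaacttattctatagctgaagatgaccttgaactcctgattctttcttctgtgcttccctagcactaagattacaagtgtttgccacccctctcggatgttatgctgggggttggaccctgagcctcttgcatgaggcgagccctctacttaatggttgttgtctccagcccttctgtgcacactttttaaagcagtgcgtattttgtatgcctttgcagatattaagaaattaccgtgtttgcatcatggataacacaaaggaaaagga

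The Ercc5 window held CCAAT on the printed strand and TTTGAA on the other strand, where the printed letters read TTCAAA. The letters CCAAT occur in 37.4% and TTTGAA in 17.9% of all 32851 windows of this length. The window at the outer start of Polk held GGGCGG on the other strand, printed as CCGCCC and found in 35.7% of windows. A single decamer of the p53 consensus was found at the inner start of Polk and in 8.36% of all windows. The full p53 consensus of 2 decamers at most 13 bases apart was in 0 of the 7 windows and in 0.0731% of all windows. The TATA box, spelled TATAAA, was in 0 of the 7 and in 13.6% of all windows. The E2F site was searched in the spelling TTTCCCGC, which was in 0 of the 7 and in 1.07% of all, and in the spelling TTTGGCGC, which was in 0 of the 7 and in 0.514% of all. Of the 7 windows, 6 held more CG dinucleotides than the median window, which has 7, with 21 in Ercc5 and 25 at the outer start of Polk, and the exception was the inner start of Polk, with 4.

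Levels were compared between genes per kilobase of exon. In Ctrl, Ddb1 had 3201 ± 182 normalized counts per kilobase (SD, n = 2), far above Ercc1 with 331 ± 100.4. Polk (118 ± 38.4) and Ercc5 (105 ± 19.7) followed and did not differ beyond their spread. Xpc had 62.6 ± 2.66, and below it Ercc4 (49.2 ± 3.09) and Xpa (42.1 ± 12.1) overlapped. Rrm2b (18.5 ± 2.23) and Ddb2 (9.90 ± 0.60) were the lowest. In Prmt5sKO the order of the means was the same except that Ercc5, at 321 ± 69.4 (SD, n = 2), stood above Polk, at 235 ± 89.5 (SD, n = 2). The single libraries overlapped, at 370 and 271 for Ercc5 and 299 and 172 for Polk. Those of Ercc1, at 609 and 245, overlapped with both.

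For Ddb2, Ercc1, Xpa, Xpc and Ddb1 the Prmt5sKO libraries differed more from each other than the group means did, as a ratio and in normalized counts, and for Polk they did so in normalized counts but not as a ratio. The deeper library was above the shallower one for 8 of the 9 genes in Ctrl, beside 51.3% of all genes, and for 7 of the 9 in Prmt5sKO, beside 51.0%. For 6 of the 9 it was so in both groups (Ddb2, Polk, Rrm2b, Ercc5, Xpa and Ercc1), beside 23.2% of all genes. The gap was widest in Prmt5sKO for Ddb2, at 3.18-fold, Ercc1, at 2.49-fold, and Xpa, at 2.03-fold. Ercc4 and Ddb1 ran the other way in Prmt5sKO, at 0.93-fold and 0.81-fold. The shallower Prmt5sKO library is the one with the high muscle differentiation markers, and the part of these or of depth in the gap was not tested. Mdm2, the p53-induced inhibitor of p53, showed a like order within groups, at 3457 and 2080.2 in Ctrl and 10628 and 6639.6 in Prmt5sKO. Its log2 fold change was 1.64 (limma-voom, adjusted p = 0.236), and that of Trp53, the gene of p53 itself, was 0.04. Cdkn1a, the p53-induced cell cycle inhibitor, stood at 3379 and 2057 in Ctrl and at 8358 and 15703 in Prmt5sKO. It was thus higher in Prmt5sKO too, at a log2 fold change of 2.13 (limma-voom, adjusted p = 0.214). Only the order of the libraries within Prmt5sKO was the reverse of that of Mdm2. The paper proposes that the rise of Cdkn1a in these cells does not depend on p53. Its grounds were p53 binding lost at the Cdkn1a gene after Prmt5 inactivation, and p53 mRNA and protein at normal levels. Altered splicing of Mdm4 was reported there as well.

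**Figure D3:**
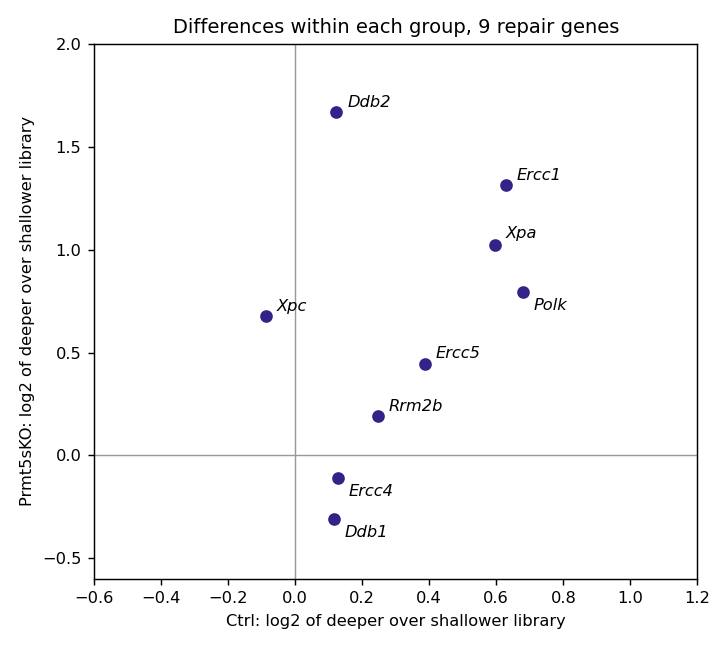
Log2 ratio of the deeper over the shallower library for each of the 9 genes, in Ctrl on the horizontal and in Prmt5sKO on the vertical axis, with 1 labelled point per gene. The 6 genes at the upper right were higher in the deeper library of both groups, with Ddb2 at 1.67, Ercc1 at 1.31 and Xpa at 1.02 on the vertical axis.

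Ratios of paired genes within a library were compared per kilobase. Rrm1 encodes the large subunit of ribonucleotide reductase, the partner of the Rrm2b product. There were 3.56 and 2.37 Rrm2b for each 100 Rrm1 in the Ctrl libraries and 6.70 and 5.26 in the Prmt5sKO libraries, so that the groups did not overlap and the mean ratio was 2.02 times higher in Prmt5sKO. Rrm2, the alternative small subunit used in S phase, stood at 14489 and 21539 normalized counts in Ctrl and at 7397 and 11368 in Prmt5sKO. Rrm2b per 100 Rrm2 was 0.38 and 0.22 in Ctrl and 1.04 and 0.59 in Prmt5sKO, also without overlap, with a mean 2.72 times higher in Prmt5sKO. Rrm2 had a log2 fold change of -0.94 with a standard error of 0.31 (limma-voom, adjusted p = 0.326), opposite in sign to that of Rrm2b. Rrm1 was at -0.53 (adjusted p = 0.389 in limma-voom). Ddb2 per 100 Ddb1 was 0.31 in both Ctrl libraries, and 0.80 and 0.20 in Prmt5sKO. Ercc4 per 100 Ercc1 was 12.8 and 18.1 in Ctrl and 9.57 and 25.7 in Prmt5sKO. For Ddb2 with Ddb1 and Ercc4 with Ercc1 the groups overlapped, with the Prmt5sKO libraries on either side of Ctrl.

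**Figure D4:**
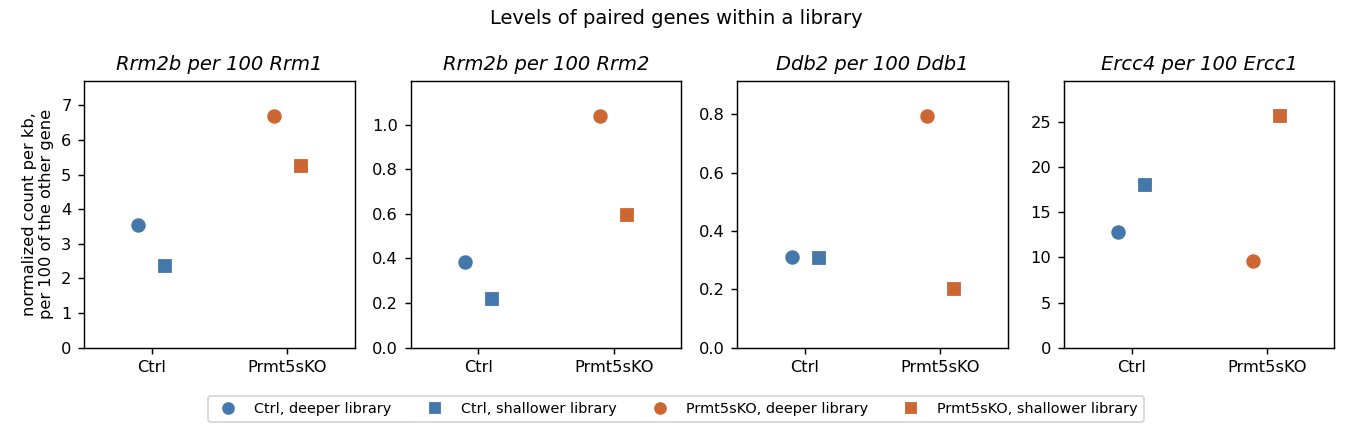
Normalized counts per kilobase of Rrm2b per 100 Rrm1, Rrm2b per 100 Rrm2, Ddb2 per 100 Ddb1 and Ercc4 per 100 Ercc1 (from left to right) in each library, with Ctrl in blue, Prmt5sKO in orange, circles for the deeper and squares for the shallower libraries, and vertical axes from 0. Both Prmt5sKO libraries lie above both Ctrl libraries for Rrm2b per Rrm1 and per Rrm2, whereas they bracket the Ctrl libraries in the other panels.

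The rest of the repair and nucleotide machinery was described with 7 lists holding 79 genes, and all 79 were tested. No gene passed in limma-voom. At an unadjusted p under 0.05, 1 of the 79 was higher and 27 were lower in Prmt5sKO (limma-voom), beside 6.01% higher and 6.95% lower of all genes, the background for each list count below. The median log2 fold change of the 79 was -0.40. These lists too were drawn up with earlier results known. The recognition, transcription-coupled and TFIIH lists had medians near that of all genes. The 7 other lesion recognition genes had a median of -0.0017, with 0 higher and 1 lower at this p. That gene was Usp7, a deubiquitinase that stabilizes both XPC and MDM2, with 3477 ± 535 normalized counts in Ctrl and 2216 ± 28.7 in Prmt5sKO (SD, n = 2 each). Its log2 fold change was -0.64, and Cetn2, which binds XPC, was the highest of the list at 0.30. The 7 genes of transcription-coupled repair had a median of -0.09, from -0.50 for Ercc8 to 0.60 for Uvssa, with 0 genes at this p. The 10 TFIIH genes had a median of -0.03, from -0.40 for the helicase gene Ercc2 to 0.45 for the kinase gene Cdk7, also with 0.

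The lists shared with DNA replication lay lower. Among the 20 gap filling and ligation genes, 14 were lower and 0 higher at an unadjusted p under 0.05 in limma-voom, beside 6.95% lower and 6.01% higher of all genes, with a median log2 fold change of -0.86. Pole, the catalytic subunit of DNA polymerase epsilon, was the lowest, with 2625 ± 569 normalized counts in Ctrl and 789 ± 17.3 in Prmt5sKO (SD, n = 2 each) and a log2 fold change of -1.72 (adjusted p = 0.198 in limma-voom). Pold4, an accessory subunit of DNA polymerase delta, was the highest at 0.53. The 11 other genes of deoxynucleotide supply had a median of -0.94, with 8 lower and 0 higher at this p. Here Tk1, the thymidine kinase of S phase, was the lowest at -1.44, and Dguok, the mitochondrial deoxyguanosine kinase, the highest at 0.72. Rrm2b, at 0.50, was opposite in sign to the median of that list.

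Among the 7 other translesion genes the median was -0.17, with 1 lower and 0 higher at an unadjusted p under 0.05 in limma-voom. That gene was Rad18, the ubiquitin ligase for PCNA, at a log2 fold change of -1.10, and Rev1, the scaffold of the translesion polymerases, was the highest among the more abundant genes at 0.52. The 17 base excision repair genes had a median of -0.40, with 3 lower and 1 higher, beside the same 6.95% and 6.01% of all genes. The uracil glycosylase gene Ung was the lowest, with 356 ± 2.16 normalized counts in Ctrl and 95.7 ± 36.8 in Prmt5sKO (SD, n = 2 each) and a log2 fold change of -1.99. The repair polymerase gene Polb was the highest among the more abundant genes at 0.88, with 252 ± 3.14 and 467 ± 144 (SD, n = 2 each). Adjusted p-values of these 4 named genes lay between 0.222 and 0.413 in limma-voom.

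**Figure D5:**
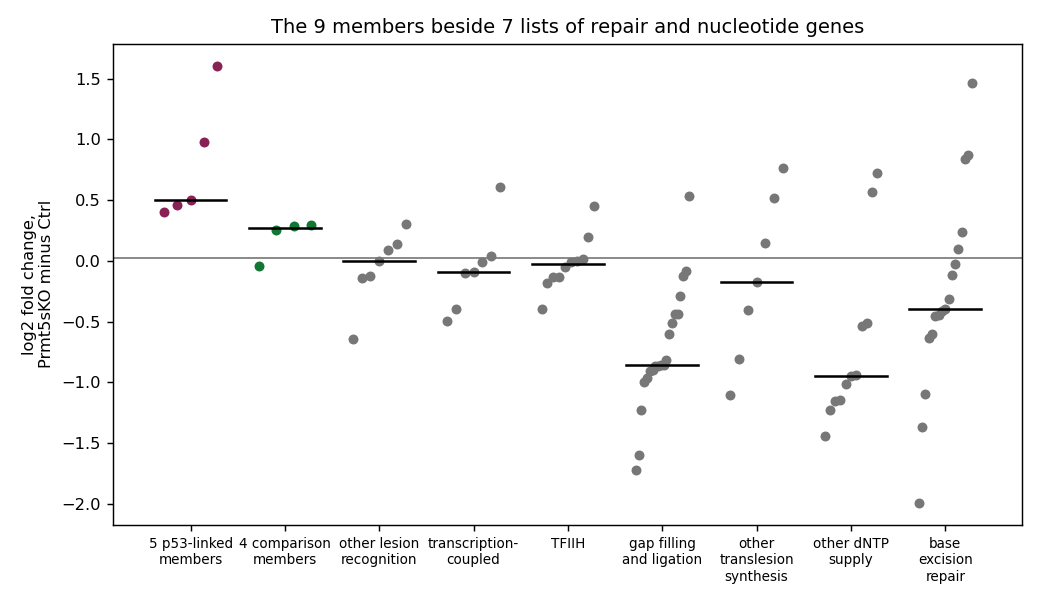
Log2 fold changes, Prmt5sKO minus Ctrl, of the 9 members (purple and green) and of 7 lists of other repair and nucleotide genes (grey), 1 point per gene, with black lines at each list's median and a grey line at the median of all genes tested. The gap filling and deoxynucleotide supply lists lie mostly below 0, with medians of -0.86 and -0.94, while all members except Ddb1, p53-linked or comparison, lie above 0.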

How the data were processed

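RNA from cultured MuSC (2 Ctrl and 2 Prmt5sKO libraries) was depleted of ribosomal RNA and sequenced on the Ion Torrent Proton. The authors trimmed reads with Reaper, aligned them to GRCm38 with STAR 2.4.0a, obtained counts per gene (the counter and its strand setting are not given in the sources used here) and deposited signal values, the mean of size-factor-normalized counts of each group, for 20065 genes. The file also holds the authors' fold changes, standard errors and p-values from DESeq2, which were not used here.

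In each group mean, 1 read of either library adds a fixed amount, so the pair of whole counts behind a mean could be solved for, with 0 genes having another solution. Recovery and test were tested on simulated data. Counts were scaled by TMM (own code, trims of 30% and 5%) and tested with limma-voom (limma 3.58.1, R 4.3.3) over 16212 genes whose normalized counts averaged 5 or more, with Benjamini-Hochberg adjustment. edgeR was not run. The 11 alternatives changed scaling, filter, weighting, pairing or left out a library. Symbols, coordinates and exon lengths came from GENCODE M21 (GRCm38), which held 19782 of the identifiers. Named genes were the 9 members, Prmt5, p53 context genes, Rrm1 and Rrm2, and the highest and lowest gene of each list among those with a mean of at least 100 normalized counts. The members and lists were chosen with earlier results of these data known.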

Additional observations from a re-analysis of the deposited data

How the results depend on the processing

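The log2 fold changes of Xpc, Polk, Rrm2b and Ercc4 kept their sign and stayed short of the threshold in all 11 alternatives. Over all genes, the number called was 0 in 8 alternatives, and with 1 library left out in turn it ranged from 0 to 489, with 489 without the deeper and 55 without the shallower Prmt5sKO library. In those 4 fits a lone library is assumed to vary like the other group. Log2 fold changes then ranged from 1.38 to 1.83 for Ercc5, -0.50 to 1.14 for Ddb2, -0.27 to 0.74 for Xpa, -0.41 to 0.90 for Ercc1 and -0.20 to 0.11 for Ddb1. The median ranged from 0.39 to 1.14 for the 5 p53-linked genes, highest without the shallower Prmt5sKO library, and from -0.079 to 0.49 for the 4 comparison genes, lowest without the deeper one. Ddb1 also changed sign when scaled by library size only (0.0666). The cause was not tested.

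The libraries carry no replicate numbers. With the deeper libraries paired in a replicate block 0 genes were called, and Ercc5 was at 1.61 and Polk at 0.99. Under this pairing, the deviations of Ctrl and Prmt5sKO libraries had a correlation of -0.17 over 16212 genes. The crossed replicate block, chosen after seeing the data, called 346 genes (2.13%), Ercc5 among them at 1.60. The replicate block changed no other call among the 9 genes. Ddb2 and Xpa, with 19 to 179 reads per library, are the most limited by depth.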
